A study of Homo sapiens and Mus musculus with 8 samples.

Results

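The aryl hydrocarbon receptor (AHR) genes were followed in xenografts and in cultures of KM12 and LS174T, 2 lines of human colorectal cancer. The 8 genes are the receptor AHR, its dimer partner ARNT, its repressor AHRR, and the target genes CYP1A1, CYP1A2, CYP1B1, TIPARP and ALDH3A1. They were taken by symbol from the 60483 genes of the deposited count table, and all 8 were found. They were proposed with these counts in view, so their levels and differences are given as a description with no test.

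AHR is a transcription factor that waits in the cytosol bound to HSP90 and other chaperones. On binding a ligand, such as a dioxin, a plant indole or a tryptophan metabolite, it enters the nucleus, pairs with ARNT and binds DNA at a short core sequence, GCGTG. CYP1A1, CYP1A2 and CYP1B1 are cytochrome P450 enzymes that oxidise many of these ligands, and CYP1A1 transcript is a widely used readout of AHR activity. AHRR and TIPARP are themselves induced by AHR and restrain it. Gut epithelium is exposed to AHR ligands from food and from bacteria.

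RNA was sequenced from 8 libraries, which form 8 groups of 1 library. In KM12 the groups were the xenograft with GNAS knocked out, the parental xenograft, the knockout culture and the parental culture, and the parental cells were labelled GNAS R201H. In LS174T the labels gave GNAS R201H to all 4 groups, which were the xenograft with Dox (+), the xenograft with Dox (-), the culture with Dox (+) and the culture with Dox (-). GNAS makes Gs alpha, the G protein subunit that turns on adenylyl cyclase, and the title of the series concerns dependence of GNAS-mutant tumors on it. The xenografts are tumors grown in mice from the human lines, and cultures were kept in RPMI-1640 with serum. What Dox switches on, whether the knockout is 1 clone, and the strain of mouse were not given in the sources used here. An effect of Dox itself and one of GNAS therefore cannot be told apart in LS174T.

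Depth was 15924846 to 23124811 counts in xenografts, against 31868711 to 37735085 in cultures. Levels below are CPM (read counts scaled to a common library size) with TMM factors, which correct for differences in library composition. GNAS was 901 CPM in the KM12 knockout xenograft, against 1387 CPM in the parental xenograft, and 297 CPM in the knockout culture, against 1117 CPM in the parental culture. In LS174T it was 690.0 CPM with Dox (+) and 584 CPM with Dox (-) in xenografts, and 1742 CPM with Dox (+) and 690.0 CPM with Dox (-) in cultures. The summed level of 12 colorectal epithelial markers was 7076 to 9728 CPM in xenografts, against 9031 to 27960 CPM in cultures. The summed level of 12 fibroblast markers was 5.71 to 271 CPM in xenografts, against 12.6 to 15.97 CPM in cultures, and the 271 CPM was the KM12 parental xenograft. The 9 endothelial markers summed to 4.00 to 19.6 CPM in xenografts, against 1.27 to 3.61 CPM in cultures, without overlap. In LS174T most of the xenograft sum was ERG, at 15.7 CPM with Dox (+) and 3.74 CPM with Dox (-). ERG was also present in the LS174T cultures, at 1.62 CPM with Dox (+) and 1.59 CPM with Dox (-), and was 0 in KM12. CDH5 was 0.447 to 1.02 CPM in xenografts, against 0 to 0.0292 CPM in cultures. TEK, with at most 6 counts in any library, was 0.194 to 0.244 CPM in xenografts, against 0 to 0.0686 CPM in cultures. ENG, PECAM1, VWF, CLDN5 and EMCN overlapped. The macrophage marker CD68 was also higher in every xenograft (0.678 to 1.02 CPM) than in every culture (0.331 to 0.582 CPM). It had at most 25 counts in any library, and CD14, CSF1R and LYZ of the same list overlapped. CSF1R was highest in the KM12 knockout culture, at 1.84 CPM, and PTPRC was at most 0.0406 CPM in any library. The whole list of 10 leukocyte markers overlapped, at 7.94 to 768 CPM in xenografts and 38.5 to 315 CPM in cultures. In KM12 and in the LS174T cultures nearly all of that sum was LYZ. It was 764 CPM in the KM12 knockout xenograft and 311 CPM in the knockout culture, so the sum does not measure leukocytes. The part of these cells in the results was not tested. KDR, an endothelial marker, TYROBP, a myeloid marker, and ADIPOQ, a fat cell marker, had 0 counts in all 8 libraries. The table holds 0 mouse gene identifiers, and how reads from mouse cells in the xenografts were treated was not given in the sources used here. In bulk RNA, fewer cells of a type and less RNA per cell cannot be told apart.

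Promoter sequences are shown for 4 genes, so that the core that AHR and ARNT bind can be seen where it is present. The levels of these genes are given in the results below. Each is the RefSeq sequence of GRCh38.p14, on the strand of the gene, from 250 bases before the transcript start to 50 bases after it. Capitals mark GCGTG, or its reverse complement CACGC where the core lies on the opposite strand. CYP1A1 is shown from chr15:74725479-74725778 on the minus strand, CYP1A2 from chr15:74748595-74748894 on the plus strand, AHRR from its first start at chr5:321464-321763 on the plus strand, and TIPARP from its first start at chr3:156674340-156674639 on the plus strand.
CYP1A1: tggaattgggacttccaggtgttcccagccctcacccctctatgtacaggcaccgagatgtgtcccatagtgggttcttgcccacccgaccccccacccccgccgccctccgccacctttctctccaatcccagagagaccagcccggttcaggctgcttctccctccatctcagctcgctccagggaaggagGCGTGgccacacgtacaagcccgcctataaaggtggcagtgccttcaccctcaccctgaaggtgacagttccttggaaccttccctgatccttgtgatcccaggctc
CYP1A2: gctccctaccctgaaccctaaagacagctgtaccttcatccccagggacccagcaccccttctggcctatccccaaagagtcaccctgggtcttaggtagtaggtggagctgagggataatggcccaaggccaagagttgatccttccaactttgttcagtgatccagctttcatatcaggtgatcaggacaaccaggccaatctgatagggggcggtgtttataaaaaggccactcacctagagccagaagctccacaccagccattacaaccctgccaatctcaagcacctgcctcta
AHRR: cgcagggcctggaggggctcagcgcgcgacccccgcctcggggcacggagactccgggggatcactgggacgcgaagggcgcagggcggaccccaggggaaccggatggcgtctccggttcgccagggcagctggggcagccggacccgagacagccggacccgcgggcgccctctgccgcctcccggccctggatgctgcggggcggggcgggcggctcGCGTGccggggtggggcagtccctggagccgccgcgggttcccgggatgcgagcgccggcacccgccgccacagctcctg
TIPARP: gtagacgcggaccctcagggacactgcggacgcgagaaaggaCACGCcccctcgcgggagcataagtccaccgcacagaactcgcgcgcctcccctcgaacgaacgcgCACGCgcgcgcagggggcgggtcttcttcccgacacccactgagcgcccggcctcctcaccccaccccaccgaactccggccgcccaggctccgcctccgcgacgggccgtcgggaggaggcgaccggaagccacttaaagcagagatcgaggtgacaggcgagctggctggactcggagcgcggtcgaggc

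CYP1A1 holds 1 core, with its first base at position -57 from the transcript start. AHRR holds 1 core at -30, which also reads as the longer TNGCGTG, where N is any base. TIPARP holds 2 cores, both on the opposite strand, at -208 and -142. The cores of CYP1A1 and TIPARP do not read as TNGCGTG. CYP1A2 holds none in this window. At the other annotated starts, AHRR holds 2 more cores at its second start and TIPARP none at its further starts. The table had promoters for 6 of the 8 genes, and of those not shown AHR holds 1 core, at position 37, and ARNT holds none. Over all 35116 promoters of 300 bases, searched on both strands, GCGTG was found in 36.5% and TNGCGTG, which contains it, in 5.51%. A match describes these letters only, and a window without one says nothing of binding elsewhere.

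CYP1A1 and CYP1B1 were far lower in the xenografts than in the cultures of both lines, and CYP1A2 was in LS174T. CYP1A1 (chromosome 15, 74719542 to 74725610 on GRCh38, minus strand) is the target widely used as a readout of AHR activity. It had 0 counts in both KM12 xenografts, against 17.7 CPM in the KM12 knockout culture and 19.1 CPM in the parental culture. With 0 counts set to a floor of 3, it was at least 122-fold lower in the knockout xenograft than in its culture. In the parental pair it was at least 111-fold lower. The 95% counting intervals reached down to 99.0-fold in the knockout pair and 90.1-fold in the parental pair. In LS174T CYP1A1 had 4 counts, or 0.194 CPM, in the Dox (+) xenograft and 1 count, or 0.0406 CPM, in the Dox (-) xenograft. The LS174T cultures had 552 CPM with Dox (+) and 866 CPM with Dox (-), from 16690 and 28284 counts. The 4 xenografts thus lie below the 4 cultures without overlap, and the LS174T cultures lie above the KM12 cultures.

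The LS174T ratios rest on those few xenograft counts. CYP1A1 was 2850-fold lower in the Dox (+) xenograft than in its culture, with a 95% counting interval of 1113- to 10463-fold. From the single read in the Dox (-) xenograft the ratio to its culture was 21337-fold lower, with an interval of 3829- to 842783-fold. All such intervals cover counting error alone, since no group has a second library, and reads copied by PCR are not independent molecules.

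CYP1A2 encodes the P450 best known for its high level in liver, and it lies 23233 bases from CYP1A1 on chromosome 15, on the opposite strand (74748844 to 74756202). It had 0 counts in all 4 xenografts. In culture it had 8.56 CPM (259 counts) with Dox (+) and 12.9 CPM (421 counts) with Dox (-) in LS174T. By the same floor it was at least 59.0-fold lower in the Dox (+) xenograft than in its culture. In the Dox (-) pair it was at least 106-fold lower. The 95% counting intervals reached down to 47.6-fold in the Dox (+) pair and 85.7-fold in the Dox (-) pair. KM12 had only 6 counts in the knockout culture and 4 in the parental culture, so no fold is given for it. CYP1A1 and CYP1A2 are close copies, and how the authors' counting treated reads that match both was not given in the sources used here, which leaves the low CYP1A2 counts uncertain.

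CYP1B1 (chromosome 2, 38066973 to 38109902, minus strand) is a P450 that acts on estrogens and polycyclic hydrocarbons outside the liver. It had 0.727 CPM in the KM12 knockout xenograft and 0.572 CPM in the parental xenograft, against 24.4 CPM in the knockout culture and 23.8 CPM in the parental culture. The LS174T values were 2.86 CPM with Dox (+) and 3.09 CPM with Dox (-) in xenografts, against 114.6 CPM with Dox (+) and 108.4 CPM with Dox (-) in cultures. The ratio was alike in the 4 pairs, at 33.5-fold lower in the KM12 knockout pair, 41.6-fold in the parental pair, 40.1-fold in the LS174T Dox (+) pair and 35.1-fold in the Dox (-) pair. The fitted difference between the responses of the lines, KM12 minus LS174T, was 0.03 ± 0.43 on the log2 scale (SE from edgeR's fit over all genes). CYP1B1 overlaps CYP1B1-AS1 and RMDN2 on the opposite strand, and the protocol described does not mark strand. CYP1B1-AS1 itself was 0.0969 to 2.07 CPM in xenografts, against 4.94 to 13.4 CPM in cultures. RMDN2 was 1.60 to 2.88 CPM in xenografts, against 3.42 to 8.06 CPM in cultures. It had 40 counts in the KM12 knockout xenograft and 28 in the parental xenograft, against 15 and 10 for CYP1B1. The part of these genes in the CYP1B1 counts was not tested.

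**Figure D1:**
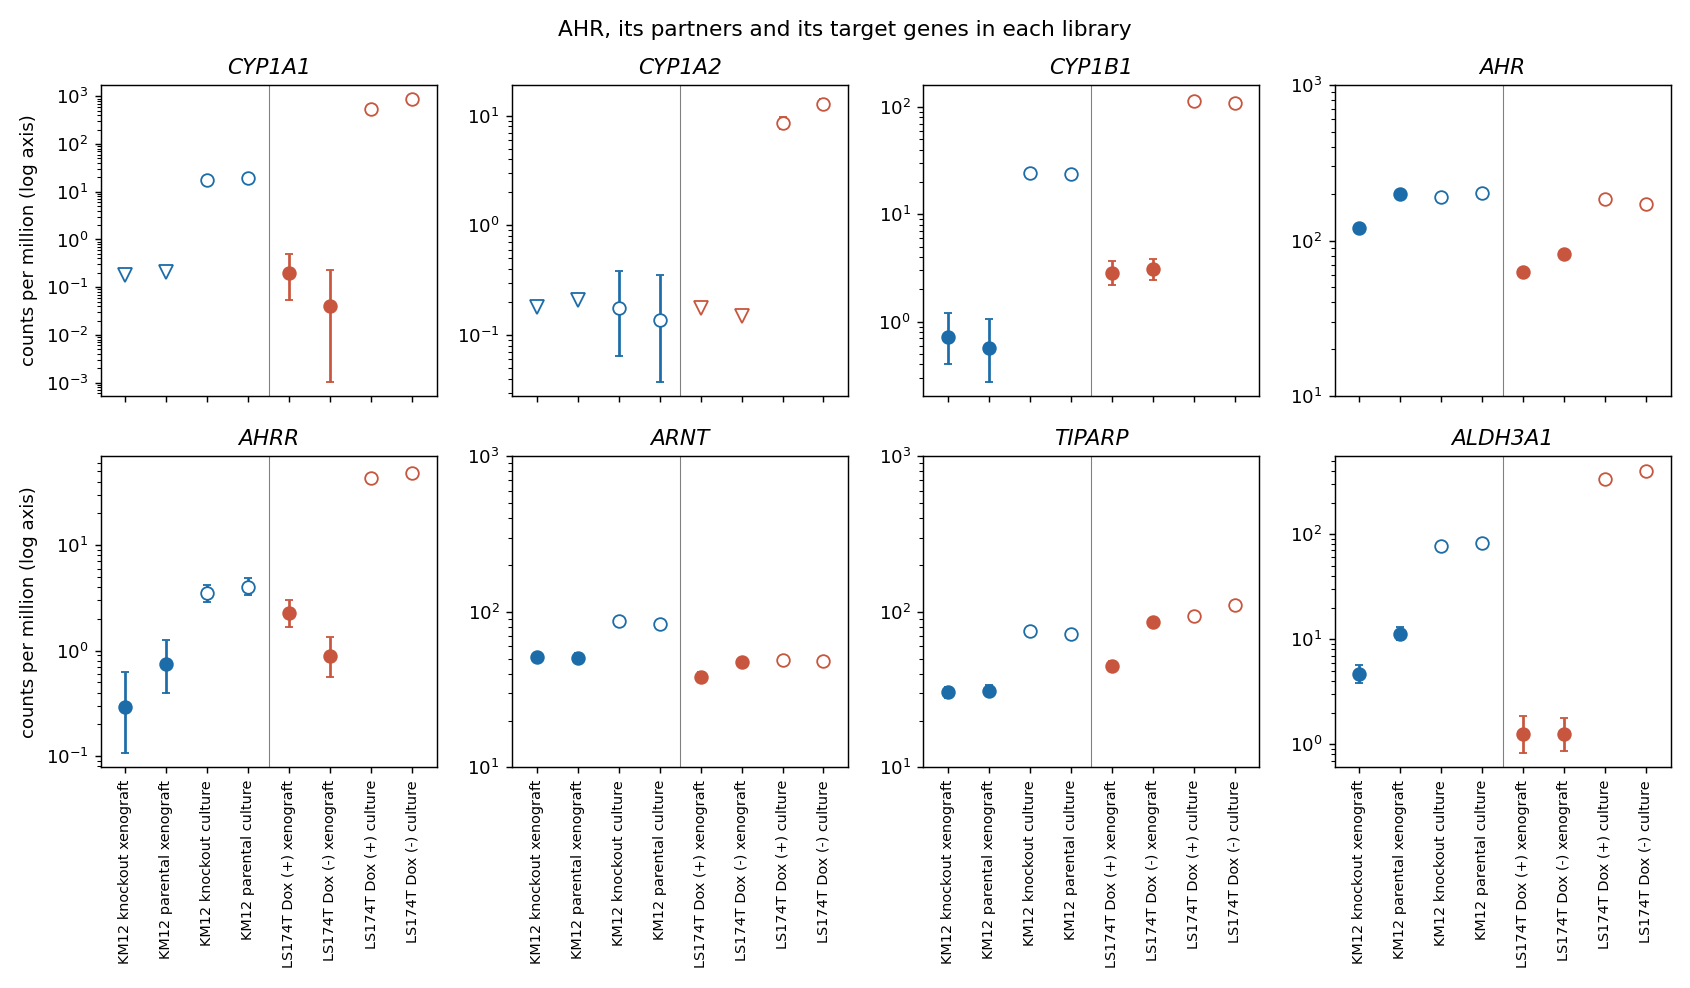
Level of each of the 8 genes in each library, in CPM on a log axis, with KM12 in blue left of the line and LS174T in red right of it. Filled points are xenografts and open points are cultures. Bars are 95% Poisson counting intervals, and open triangles mark the upper end of that interval for 0 counts. CYP1A1 reached 552 and 866 CPM in the LS174T cultures and at most 0.194 CPM in any xenograft, while ARNT ran from 38.1 to 87.8 CPM over the 8 libraries.

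ALDH3A1 encodes an aldehyde dehydrogenase that AHR ligands induce in many tissues (chromosome 17, 19737984 to 19748943, minus strand). It had 4.70 CPM in the KM12 knockout xenograft and 11.3 CPM in the parental xenograft, against 76.5 CPM in the knockout culture and 81.8 CPM in the parental culture. In LS174T it had 1.26 CPM in each xenograft, against 334 CPM with Dox (+) and 399 CPM with Dox (-) in culture. All 4 xenografts lay below all 4 cultures. The ratio was 16.3-fold lower in the KM12 knockout pair and 7.23-fold lower in the parental pair, against 266-fold lower in the LS174T Dox (+) pair and 317-fold lower in the Dox (-) pair. The counting intervals of the LS174T pairs, 181- to 407-fold and 223- to 467-fold, lie above those of the KM12 pairs, 13.3- to 20.2-fold and 6.25- to 8.39-fold.

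The feedback repressor AHRR (chromosome 5, 304176 to 438291, plus strand) competes with AHR for ARNT. It had 0.291 CPM (6 counts) in the KM12 knockout xenograft and 0.744 CPM (13 counts) in the parental xenograft, against 3.51 CPM in the knockout culture and 4.05 CPM in the parental culture. The LS174T levels were 2.27 CPM with Dox (+) and 0.893 CPM with Dox (-) in xenografts, against 43.7 CPM with Dox (+) and 48.8 CPM with Dox (-) in cultures. It was thus lower in every xenograft than in every culture, but the LS174T Dox (+) xenograft and the KM12 knockout culture are only a short way apart. The ratio was 12.1-fold lower in the KM12 knockout pair, 5.44-fold in the parental pair, 19.2-fold in the LS174T Dox (+) pair and 54.6-fold in the Dox (-) pair. AHRR overlaps the well-expressed gene PDCD6 on the same strand. PDCD6 was 40.0 to 87.0 CPM in xenografts, against 60.5 to 181 CPM in cultures, and its part in the AHRR counts was not tested.

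TIPARP (chromosome 3, 156673235 to 156706770, plus strand) is an enzyme that attaches ADP-ribose to AHR and limits its activity, and its first promoter holds 2 cores. It differed by less. It had 30.3 CPM in the KM12 knockout xenograft and 31.2 CPM in the parental xenograft, against 74.7 CPM in the knockout culture and 72.0 CPM in the parental culture. In LS174T it had 45.1 CPM with Dox (+) and 85.4 CPM with Dox (-) in xenografts, against 94.0 CPM with Dox (+) and 110.6 CPM with Dox (-) in cultures. The Dox (-) xenograft lay above both KM12 cultures, so the environments overlap. The ratio was 2.46-fold lower in the KM12 knockout pair, 2.31-fold in the parental pair, 2.09-fold in the LS174T Dox (+) pair and 1.30-fold in the Dox (-) pair.

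The receptor and its partner remained well expressed in every library. AHR (chromosome 7, 16916359 to 17346152, plus strand) had 120.3 CPM in the KM12 knockout xenograft and 198 CPM in the parental xenograft, against 189 CPM in the knockout culture and 202 CPM in the parental culture. LS174T had 63.0 CPM with Dox (+) and 81.7 CPM with Dox (-) in xenografts, against 185 CPM with Dox (+) and 171 CPM with Dox (-) in cultures. Both LS174T xenografts and the KM12 knockout xenograft lay below every culture, while the KM12 parental xenograft lay among the cultures. AHR was 2.93-fold lower in the LS174T Dox (+) pair, 2.09-fold in the Dox (-) pair and 1.57-fold in the KM12 knockout pair. In the KM12 parental pair the ratio was 1.02-fold lower with an interval of 0.979- to 1.07-fold, and it turned to a higher level in the xenograft (log2 ratio 0.23, against -0.03) when libraries were scaled by total counts.

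ARNT (chromosome 1, 150809705 to 150876768, minus strand) is also the dimer partner of the hypoxia-inducible factors. It had 51.0 CPM in the KM12 knockout xenograft and 50.6 CPM in the parental xenograft, against 87.8 CPM in the knockout culture and 83.0 CPM in the parental culture. In LS174T it had 38.1 CPM with Dox (+) and 47.7 CPM with Dox (-) in xenografts, against 48.8 CPM with Dox (+) and 48.2 CPM with Dox (-) in cultures. The KM12 xenografts lay close to the LS174T cultures, so the environments overlap for ARNT as for AHR and TIPARP. In the LS174T Dox (-) pair the ratio was 1.01-fold lower with an interval of 0.936- to 1.09-fold, and its direction also turned under total-count scaling (log2 ratio 0.22, against -0.01).

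Of the 8 genes, 5 were lower in all 4 xenografts than in all 4 cultures, namely CYP1A1, CYP1A2, CYP1B1, AHRR and ALDH3A1, where 13.8% of the 16070 genes tested did the same. In single pairs, 6 of 8 genes were past 2-fold lower in the KM12 knockout xenograft (9.54% of all genes), 6 in the KM12 parental xenograft (8.33%), 7 in the LS174T Dox (+) xenograft (11.0%) and 6 in the LS174T Dox (-) xenograft (14.0%). None of the 8 was past 2-fold higher in any of these 4 pairs, where the share of all genes was 14.8% in the KM12 knockout pair, 16.5% in the parental pair, 19.8% in the LS174T Dox (+) pair and 21.4% in the Dox (-) pair. In KM12 these counts include CYP1A2, which rests on 0 counts against 6 and 4. All 8 genes passed the filter of at least 1 CPM in at least 2 libraries, but CYP1A1 passed through the 4 cultures alone and CYP1A2 through the 2 LS174T cultures alone, so they had to differ. Nothing is read from these counts, because the genes were chosen with them in view.

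**Figure D2:**
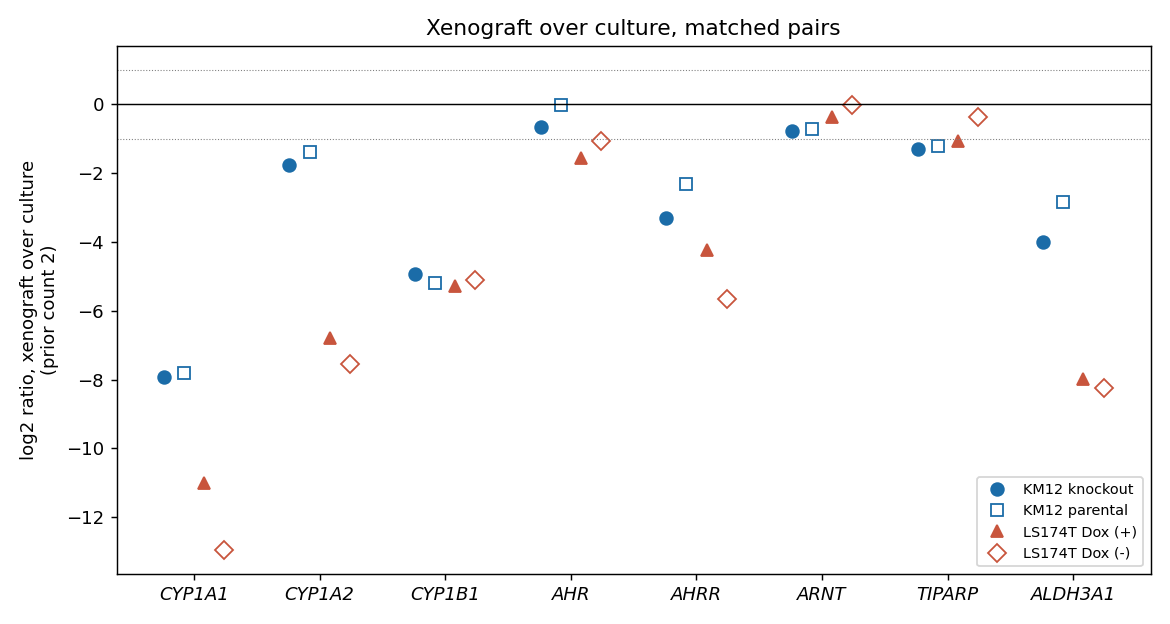
Ratio of xenograft to matched culture for each of the 8 genes in each of the 4 pairs, as log2 with a prior count of 2; dotted lines mark 2-fold and the prior count sets the size of ratios against 0 counts (CYP1A1 in KM12 and CYP1A2). CYP1B1 sits between -4.93 and -5.29 in the 4 pairs, whereas ALDH3A1 sits at -4.00 and -2.84 in KM12 and at -7.97 and -8.23 in LS174T.

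The same contrasts were fitted with edgeR's quasi-likelihood method over all genes, with the 2 GNAS states of a line standing for each environment. In KM12 the fitted log2 difference, xenograft over culture, was -5.20 ± 0.23 for CYP1B1, -3.41 ± 0.29 for ALDH3A1, -2.92 ± 0.49 for AHRR, -1.25 ± 0.19 for TIPARP, -0.75 ± 0.15 for ARNT and -0.34 ± 0.20 for AHR (SE). In LS174T it was -8.18 ± 0.37 for ALDH3A1, -5.23 ± 0.20 for CYP1B1, -4.95 ± 0.43 for AHRR, -1.31 ± 0.20 for AHR, -0.72 ± 0.19 for TIPARP and -0.18 ± 0.15 for ARNT. The fitted difference between the lines, KM12 minus LS174T, was 4.77 ± 0.43 for ALDH3A1, and it stayed between 4.16 and 5.33 as each library was left out. Because the genes were chosen with these contrasts in view, no calls are given for them here. CYP1A1 and CYP1A2 are left out here, since their fitted values depend on the prior count.

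The level of the AHR genes was also compared between GNAS states. In the KM12 cultures the genes other than CYP1A2 differed little between knockout and parental cells, with ratios of 0.866 for AHRR to 1.06 for ARNT. CYP1A2 had 6 counts against 4, a ratio of 1.28 whose interval of 0.303 to 6.16 is too wide to show a difference or its absence. Among the 8 genes 0 were past 2-fold (3.45% of all genes). In the KM12 xenografts ALDH3A1 was lower in the knockout, 4.70 CPM against 11.3 CPM in the parental tumor, a ratio of 0.415 (0.322 to 0.532). AHRR had a ratio of 0.391 there, but the interval of 0.122 to 1.10 includes no difference. AHR was 0.607 times its parental level (0.576 to 0.639) in that pair. These were 2 of 8 genes past 2-fold lower, ALDH3A1 and AHRR, beside 6.92% of all genes in the same direction. The parental xenograft of this pair is the library with the high fibroblast markers (18.1 CPM for the list in the knockout xenograft, against 271 CPM in the parental xenograft, of which COL3A1 was 219.7 CPM). In each of these xenografts 3 of the 12 markers were at 0. Their part in the differences of the AHR genes was not tested.

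In the LS174T cultures CYP1A1 was lower with Dox (+), 552 CPM against 866 CPM with Dox (-), a ratio of 0.637 (0.625 to 0.649). CYP1A2 had a similar ratio of 0.664 (0.567 to 0.777). The ratio was 0.838 for ALDH3A1, 0.850 for TIPARP, 0.895 for AHRR, 1.01 for ARNT, 1.06 for CYP1B1 and 1.08 for AHR. None of the 8 was past 2-fold in this pair, beside 2.99% of all genes. In the LS174T xenografts AHRR was higher with Dox (+), 2.27 CPM against 0.893 CPM with Dox (-), a ratio of 2.55 (1.505 to 4.44). TIPARP was lower there, with a ratio of 0.528 (0.488 to 0.570). AHR was lower in that pair too, at 0.770 (0.718 to 0.826), as was ARNT, at 0.799 (0.729 to 0.875). CYP1A1 had 4 counts with Dox (+) and 1 with Dox (-), a ratio of 4.77 whose interval of 0.472 to 235 includes no difference. Thus 2 of 8, CYP1A1 and AHRR, were past 2-fold higher, beside 3.79% of all genes. AHRR was higher with Dox (+) in the xenograft and not in the culture, and that contrast between environments has no replicate check.

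**Figure D3:**
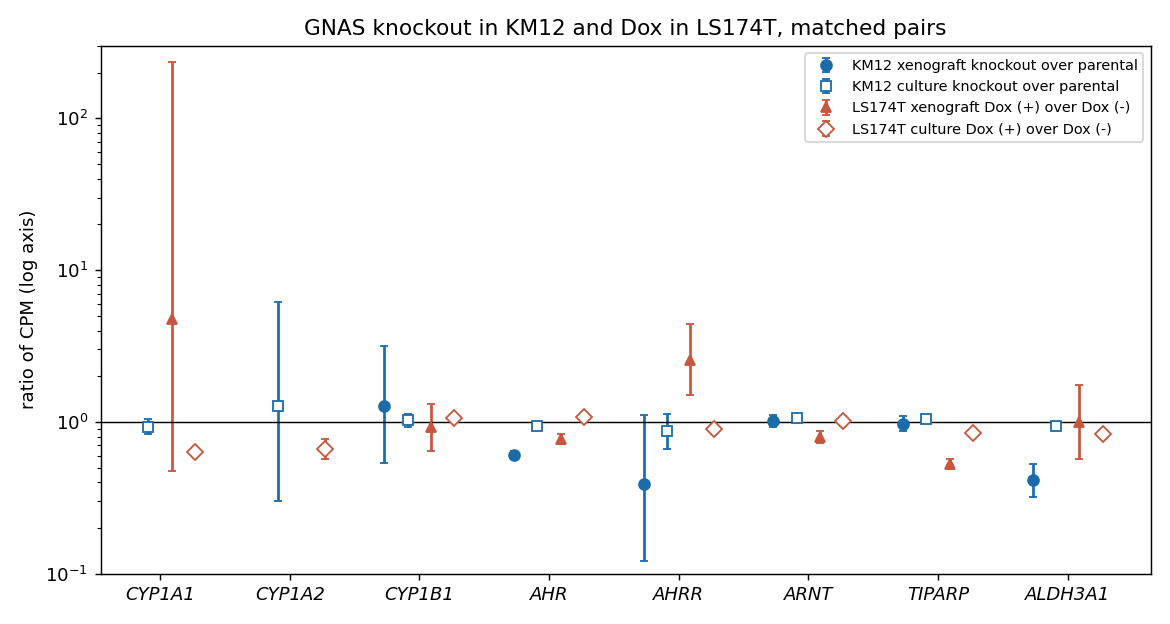
Ratio of CPM for the 8 genes in the 4 pairs that differ in GNAS state or Dox, on a log axis, with 95% counting intervals; genes with 0 counts in both libraries have no point. The LS174T culture point for CYP1A1 (0.637), the KM12 xenograft points for ALDH3A1 (0.415) and AHR (0.607) and the LS174T xenograft point for TIPARP (0.528) lie below 1 with intervals that leave out 1.

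In the whole table edgeR's quasi-likelihood test called 2 genes for the KM12 knockout over parental (0.0124%) and 0 genes for LS174T Dox (+) over Dox (-) (0%), against 892 and 718 genes at an unadjusted p below 0.05. DESeq2 called 65 genes for the knockout and 13 for Dox, and limma-voom called 0 for each. The fitted log2 difference of ALDH3A1 for the knockout, over both environments, ran from -1.27 to -0.09 as each library was left out.

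Of the 20 other genes reported as AHR targets, 16 passed the filter. This list and those that follow were also chosen with earlier results of these data known. Their counts, medians and p-values are therefore a description, and nothing is read from them. In the KM12 xenografts 9 of 16 fell and 1 rose (adjusted p below 0.05, edgeR's quasi-likelihood test over 16070 genes, of which 15.5% fell and 14.3% rose). In the LS174T xenografts 9 of 16 fell and 3 rose, where 22.5% of all genes fell and 23.4% rose. SERPINB2 reached 1 CPM in the 2 LS174T cultures alone, so it passed the filter only where it was high and had to differ. The median log2 difference of the 16 genes was -2.09 in each line, beside -0.001 in KM12 and 0.027 in LS174T for all genes. Of the 16, 10 were lower in all 4 xenografts than in all 4 cultures, beside 13.8% of all genes, and 1, HES1, was higher in all 4, beside 12.6%. The KM12 falls of ALDH1A3 and SLC7A5 were not called without any 1 of the 4 LS174T libraries. The LS174T count of falling genes was 4 to 6 when any 1 LS174T library was left out, at 4 without either Dox (-) library, 5 without the Dox (+) culture and 6 without the Dox (+) xenograft. The count of rising genes was 1 without either Dox (-) library.

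Among these, UGT1A1, which attaches glucuronic acid to bilirubin and drugs, had 0 counts in the KM12 knockout xenograft and 0.172 CPM in the parental xenograft, against 37.9 CPM in the knockout culture and 29.1 CPM in the parental culture. It had 4.74 CPM with Dox (+) and 9.09 CPM with Dox (-) in the LS174T xenografts, against 744 CPM with Dox (+) and 767 CPM with Dox (-) in the cultures, and it fell by 6.82 ± 0.41 on the log2 scale (adjusted p = 0.00033, edgeR). UGT1A1 shares exons with UGT1A6, so the split of counts between them is uncertain. ABCG2, a pump that exports drugs, fell by 3.77 ± 0.21 in KM12 (adjusted p = 8.51e-05, edgeR). The LS174T values were 1 count in each xenograft, against 16.6 CPM with Dox (+) and 12.8 CPM with Dox (-) in culture. ALDH1A3, which makes retinoic acid, fell by 3.74 ± 0.74 in KM12 (adjusted p = 0.0367, edgeR) and fell by 5.36 ± 0.81 in LS174T (adjusted p = 0.0134, edgeR), and it was not called in either line without any 1 of the 4 LS174T libraries.

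SERPINB2, a plasminogen activator inhibitor, had 0 counts in both LS174T xenografts. With the floor of 3 counts it was at least 14.1-fold lower with Dox (+) and at least 13.3-fold lower with Dox (-) than in culture. NQO1, a quinone reductase under both AHR and NRF2, was not among the genes picked by the naming rule and is given because it belongs to the classic AHR battery. It had 80.9 CPM in the KM12 knockout xenograft and 54.9 CPM in the parental xenograft, against 407 CPM in the knockout culture and 359.6 CPM in the parental culture. LS174T had 127 CPM with Dox (+) and 125 CPM with Dox (-) in xenografts, against 1333 CPM with Dox (+) and 1637 CPM with Dox (-) in cultures. The xenografts of each line lay well below its cultures. PTGS2, the inducible cyclooxygenase, rose in both lines, by 2.40 ± 0.61 in KM12 (adjusted p = 0.0373, edgeR) and 3.15 ± 0.69 in LS174T (adjusted p = 0.0164, edgeR). The LS174T rise of PTGS2 was not called without either Dox (-) library. The KM12 rise was not called without the parental culture or the parental xenograft, nor with the knockout and Dox terms dropped. For the knockout itself PTGS2 stood at -2.01 ± 0.60, which did not pass (adjusted p = 0.86, edgeR).

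**Figure D4:**
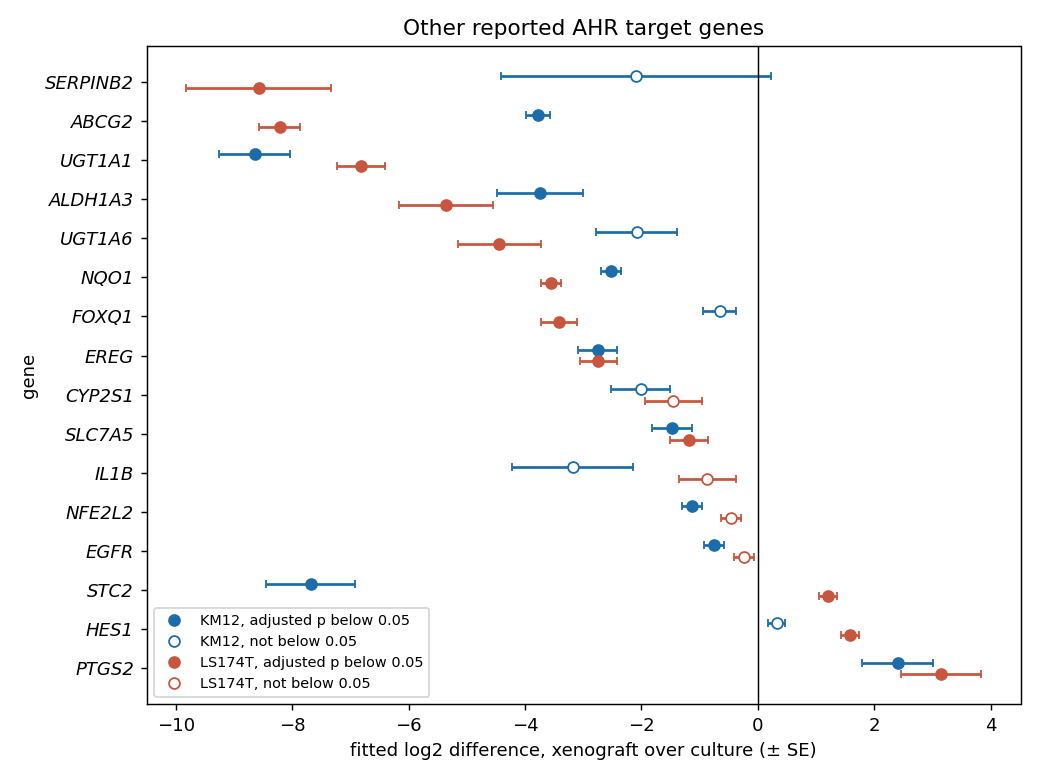
Fitted log2 difference, xenograft over culture, with its SE, for the 16 other reported AHR targets that passed the filter; filled points have an adjusted p below 0.05. NQO1 lies at -2.52 in KM12 and -3.55 in LS174T, PTGS2 lies above 0 in both lines, and STC2 lies on opposite sides of 0; values for genes with 0 counts in a group, STC2 and SERPINB2 among them, depend on the fit's prior count.

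Smaller differences were seen for the 7 genes of the cytosolic complex that holds AHR or carries it into and out of the nucleus. In KM12 2 of 7 fell, among them the kinase SRC by 1.45 ± 0.22 (adjusted p = 0.00373, edgeR), beside 15.5% of all genes. In LS174T 7 of 7 fell, beside 22.5% of all genes, with HSP90AA1 at -1.47 ± 0.33 and the importin KPNA2 at -1.12 ± 0.14. The median log2 difference was -0.35 in KM12 and -0.61 in LS174T. HSP90AA1 had 1434 CPM in the KM12 knockout xenograft and 3333 CPM in the parental xenograft, against 3449 CPM in the knockout culture and 3219 CPM in the parental culture, so the knockout xenograft was the low one in KM12. The LS174T count fell to 0 of 7 without either Dox (-) library, to 1 without either Dox (+) library, and to 4 with the knockout and Dox terms dropped.

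Of 13 other bHLH-PAS factors and coactivators, 11 passed the filter. In KM12 3 of 11 fell and 0 rose, beside 15.5% and 14.3% of all genes. Of these NPAS2 was called in only 2 of 8 fits with 1 library left out. HIF1A, which shares ARNT with AHR, fell by 1.47 ± 0.15 there (adjusted p = 0.00101, edgeR). In LS174T 5 of 11 fell and 2 rose, beside 22.5% and 23.4% of all genes, and the falling count was 1 without any 1 of the 4 LS174T libraries. EPAS1 stood at -2.55 ± 0.55 in LS174T, and was not called without any 1 of the 4 KM12 libraries. HIF3A stood at 2.25 ± 0.58, but it reached 1 CPM in xenografts alone, so it passed the filter only where it was high, and it was not called without either Dox (-) library. HIF1A was 98.9 to 109 CPM in KM12 xenografts and 89.2 to 107 CPM in LS174T xenografts, so it was well expressed in all 4. The other set of genes that need ARNT, 20 targets of hypoxia-inducible factors, went the opposite way to CYP1A1. All 20 passed the filter, and 12 rose in KM12 and 20 in LS174T, with 0 falling in either line (14.3% and 23.4% of all genes rose). Their median log2 difference was 0.88 in KM12 and 3.20 in LS174T. The difference between the lines itself passed for 15 of 20, all higher in LS174T, beside 13.7% of all genes, and for 0 to 10 of them when 1 LS174T library was left out. CA9, a carbonic anhydrase that passed the filter through the xenografts alone, had 10.3 CPM in the KM12 knockout xenograft and 3.60 CPM in the parental xenograft, against 0.0585 CPM in the knockout culture and 0.274 CPM in the parental culture. It reached 229 CPM with Dox (+) and 233 CPM with Dox (-) in the LS174T xenografts, against 0.727 CPM with Dox (+) and 0.490 CPM with Dox (-) in the cultures. Whether this bears on the AHR genes was not tested.

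Of 13 genes that make AHR ligands from tryptophan or bring it into the cell, 8 passed the filter. IDO1 and IDO2, which start the kynurenine route, were at most 0.123 CPM in any library, and TDO2, which does the same in liver, was at most 0.926 CPM. In KM12 2 of 8 rose, KYNU and TPH1, and 1 fell, AFMID, beside 14.3% and 15.5% of all genes. KYNU and TPH1 reached 1 CPM in the 2 KM12 xenografts alone, so they passed the filter only where they were high and had to differ. KYNU, which cleaves kynurenine, had 7.80 CPM in the KM12 knockout xenograft and 4.06 CPM in the parental xenograft, and at most 0.263 CPM in the other 6 libraries. TPH1, which starts serotonin synthesis, had 1.74 CPM in the knockout xenograft and 1.20 CPM in the parental xenograft, and at most 0.771 CPM elsewhere. Without either KM12 xenograft neither gene passed the filter, and TPH1 was called in 0 of the 6 fits that left out another library. AFMID fell by 1.09 ± 0.19 (adjusted p = 0.006, edgeR). In LS174T 1 of 8 rose, AADAT by 0.96 ± 0.29 (adjusted p = 0.0282, edgeR), and 0 fell, beside 23.4% and 22.5% of all genes. Without any 1 LS174T library AADAT was not called. No gene of any of these 5 lists passed the test for the GNAS knockout in KM12 or for Dox in LS174T with all 8 libraries.

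The genes whose pattern was most like that of each AHR gene were found by Pearson's r of log2 CPM over the 8 libraries among the 16069 other genes tested. This is a description, since the 8 libraries split by environment and line and many genes share that split. For CYP1B1 the closest was FGF19, a gut hormone induced by bile acids (r = 0.997), which had 0 to 0.203 CPM in xenografts, against 1.90 to 15.7 CPM in cultures. For CYP1A1 the closest were FAM86DP, AP3M1 and POMGNT2 (r = 0.994 to 0.995). AP3M1 was only 40.6 to 46.8 CPM in xenografts, against 71.4 to 101.5 CPM in cultures, so a high r does not mean a difference of like size. For AHRR the closest were TANGO2, GCLM and SERPINI1 (r = 0.992 to 0.993), and GCLM, a subunit of the enzyme that makes glutathione, was 18.4 to 30.8 CPM in xenografts, against 36.6 to 83.5 CPM in cultures. For ALDH3A1 they included CDC37, a partner of HSP90, and GOT1 (r = 0.994 to 0.996). For CYP1A2 they were PCYT1A, GLMP and RAB10 (r = 0.993 to 0.997), for TIPARP HERPUD1, SEC24B and RELA (r = 0.984 to 0.997), and for AHR CCDC117, FBRS and ATG4D (r = 0.978 to 0.987). For ARNT they were DCAF5, ETV5 and a gene the files list only as ENSG00000256001 (r = 0.990 to 0.992).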

How the data were processed

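RNA from 8 libraries was sequenced after oligo(dT) capture, per the labels' protocols, which describe no step that marks strand. The deposited values are raw counts of reads for human genes, made by the authors with STAR 2.7.2b and HTSeq 0.11.0 on hg38 and GRCm39, per the submitters' processing notes. The annotation release, the strand setting and the treatment of mouse reads were not given in the sources used here. Reads that match near-identical or overlapping genes could therefore be split or dropped. No column belonged to another sample (0 columns).

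Gene positions came from GENCODE v29 on GRCh38, gene names from a separate list matched by gene identifier, and promoters from RefSeq on GRCh38.p14. Counts were scaled with TMM and fitted in edgeR 4.0.16 (R 4.3.3, limma 3.58.1; DESeq2 1.42.0 as an alternative) with glmQLFit. All 8 libraries entered 1 fit of 6 coefficients: line, environment within line, knockout in KM12 and Dox in LS174T. It had 2 residual degrees of freedom. The filter kept the 16070 genes that reached 1 CPM in 2 or more libraries, and p-values were adjusted by Benjamini-Hochberg over all of them. SE is the absolute log2 difference over the square root of F. Because each group is 1 library, p-values rest on spread shared across genes. They also rest on the knockout or Dox effect of a line being the same in culture and in xenograft. Pairs were compared by the ratio of CPM with an exact 95% conditional interval. A ratio was called past 2-fold with a prior count of 2, and 0 counts were set to a floor of 3 counts per library for a bound.

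The 8 genes and the lists were chosen with earlier results of these data known. Beyond the 8 genes and GNAS, genes were named by rule: up to 4 per list and contrast among those that passed, by size of the log2 difference, and the 3 genes most like each of the 8. Exceptions are NQO1, IDO1, IDO2 and TDO2, named after their values were seen. Cell type markers at 0 or highest of their list were named by rule, and the other markers after their values were seen. Some genes the rule picked are not reported here. Alternatives were DESeq2, RLE factors, limma-voom, no filter, a fit without knockout and Dox terms, total-count scaling, a prior count of 0.5 and each library left out in turn.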

Additional observations from a re-analysis of the deposited data

Results flagged for a closer look

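The xenograft response, xenograft over culture, differed between the lines for several genes by a test of the difference itself (edgeR's interaction contrast, adjusted over 16070 genes, with 1 library per group). Each value is the log2 response of KM12 minus that of LS174T. ALDH3A1 stood at 4.77, and because it was chosen with these counts in view this is a description. It stayed between 4.16 and 5.33 as each library was left out. Without any 1 of the 4 LS174T libraries ALDH3A1 was not called. The lists of the other genes below were also chosen with earlier results of these data known, so their p-values are a description. Among the other reported AHR targets the difference was 4.45 for ABCG2 (adjusted p = 0.00185), which rests on 1 count in each LS174T xenograft, and 2.76 for FOXQ1 (adjusted p = 0.0102). It was -1.26 for HES1 (adjusted p = 0.00874). None of these 3 was called when any 1 of the 4 LS174T libraries was left out, where they ran from 4.36 to 4.52 for ABCG2, 2.20 to 3.31 for FOXQ1 and -1.37 to -1.14 for HES1 over all 8 such fits.

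STC2, a secreted glycoprotein, stood at -8.89 (adjusted p = 0.00108). It had 0 counts in both KM12 xenografts, against 18 counts in the knockout culture and 44 in the parental culture, and 204 CPM with Dox (+) and 234 CPM with Dox (-) in LS174T xenografts, against 90.3 CPM with Dox (+) and 99.4 CPM with Dox (-) in cultures. The size of the KM12 side depends on the prior count, and the bound there is at least 3.62-fold lower in the knockout pair and at least 8.80-fold in the parental pair. The STC2 difference was not called without either LS174T Dox (-) library (-9.57 to -7.98 over the 8 fits with 1 library left out). KPNA2, an importin, stood at 1.05 (adjusted p = 0.0146) and AADAT, a kynurenine aminotransferase, at -1.55 (adjusted p = 0.0436). Over the same 8 fits KPNA2 ran from 0.93 to 1.17 and was not called without any 1 LS174T library, and AADAT ran from -2.11 to -1.02 and was called only without a KM12 knockout library. Of the 20 hypoxia genes that use ARNT, 15 had a tested difference, all with the higher response in LS174T. Without an LS174T library the 15 became 0 (no Dox (-) culture), 1 (no Dox (-) xenograft), 7 (no Dox (+) culture) or 10 (no Dox (+) xenograft).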

How the results depend on the processing

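The environment contrasts called 4785 genes in KM12, 7381 in LS174T and 2198 for their difference. Leaving out 1 library gave 2654 to 4037 genes in KM12, 1046 to 8748 in LS174T and 1 to 3074 for the difference. The low ends of all 3 came without the LS174T Dox (-) culture. The knockout contrast called 2 genes and the Dox contrast 0, with 0 to 1212 and 0 to 49 when 1 library was left out. The knockout counts of 1171 and 1212 came without the parental and the knockout KM12 culture. With no filter the difference gave 3428 genes, the knockout 365 and Dox 101. DESeq2 gave 65 for the knockout and 13 for Dox, and limma-voom gave 0 for the knockout. Why these counts moved was not tested. RLE factors kept all 5 counts within 1.5 times, and dropping the knockout and Dox terms kept the 3 environment counts within it. Of the fitted values of the 8 genes under the other settings that keep all libraries, 112 stayed within 1 SE and 8 moved, and with 1 library left out 233 stayed and 77 moved. The line difference of CYP1A2 has an SE of 9110 and could not count as moved. Of the pair ratios 176 stayed within their counting interval and 16 moved, all under total-count scaling. No paired analysis was possible because the labels give no replicate numbers to block on and each group has 1 library, while the fit itself compares environments within each line with its GNAS states as terms. Depth limits CYP1A1 and CYP1A2 in xenografts, where 0 to 4 counts were seen and the floor of 3 counts stands at 0.122 to 0.172 CPM.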
